A study of Mus musculus with 4 samples.

Results

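The genes of 8 myosin light chains and of 2 kinases that phosphorylate them were examined in cultured mouse myoblasts with and without a functional Tet2 gene. They were taken by name from the deposited expression table, and all 10 names were found among its 24445 genes. The set comprised 5 light chains of the sarcomere (Myl1, Myl2, Myl3, Myl4 and Mylpf), 3 light chains of non-muscle and smooth muscle myosin (Myl6, Myl6b and Myl9), and the kinases Mylk and Mylk2. The sarcomeric light chains Myl4, Mylpf and Myl1 were lower in Tet2 KO myoblasts, at 274, 321 and 150 FPKM against 681, 790 and 348 FPKM in WT. Myl6, the most abundant of the 10 genes in Tet2 KO, differed little, with 674 FPKM in Tet2 KO against 732 FPKM in WT. FPKM is the number of sequenced fragments scaled to the length of the transcript and to the mapped fragments of the library, so levels of genes of different length can be set side by side.

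Tet2 oxidises methylated cytosine in DNA. To ask how its loss alters the transcripts of muscle precursor cells, the study sequenced RNA of primary myoblasts from 2 WT and 2 Tet2 KO libraries. Both groups were on the C57BL/6 background. Tet2 KO animals carried a constitutive deletion of exon 3 of Tet2, so the gene was disrupted in every tissue and not in muscle cells alone. Per the methods, mice were male and 8 to 10 weeks old unless stated otherwise, and the number of animals behind each library was not given. Satellite cells, which are muscle stem cells, had been sorted from hindlimb muscle as CD45-, CD11b-, CD31- and Sca1- cells that carried CD34 and integrin alpha 7. They were grown on collagen for at least 3 days and had become MyoD+ myoblasts. The deposited table gave 1 FPKM value per gene and group. It was taken as the authors' value for the libraries of a group together, although how they were combined is not stated. No value per library was used, so no standard deviation or number of replicates stands beside any level, no test between the groups was made, the authors' own test results were not used, and each difference below is a description of 1 pooled value against another. The depth of the libraries is unknown.

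Myosin II is built from a pair of heavy chains, each of which binds an essential and a regulatory light chain on its lever arm. Essential light chains stiffen the lever arm. Regulatory light chains are phosphorylated by calcium and calmodulin dependent myosin light chain kinases, which switches smooth muscle and non-muscle myosin on and tunes the force of striated muscle. Light chains come as isoforms for fast, slow, embryonic and cardiac sarcomeres, and for the contractile bundles that all cells use in adhesion, migration and division. Myoblasts rely on the non-muscle set while they proliferate, and switch the sarcomeric set on as they differentiate.

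The upstream sequences of the genes with the clearest contrast are shown first. Genes that were alike in their difference between groups had unlike sequences in the windows taken here. GENCODE vM1 gives coding transcripts of Myl1 4 starts, of Myl4 5 and of Mylpf 2, and which of them were in use was not measured. Whether the sequences go with the differences was not tested. A RefSeq table of promoters (GRCm38.p6) held 11 start sites of 9 of the 10 genes, and the 250 bases before each of them were also found letter for letter in mm9, the build of the deposited table. Mylk2 is not among them. The stretches printed run 5' to 3' toward the start site, on the strand of the gene, and leave out bases that GENCODE vM1 places in exons of coding transcripts. Capitals mark E-boxes (CANNTG), the motif bound by MyoD and myogenin.
Myl1: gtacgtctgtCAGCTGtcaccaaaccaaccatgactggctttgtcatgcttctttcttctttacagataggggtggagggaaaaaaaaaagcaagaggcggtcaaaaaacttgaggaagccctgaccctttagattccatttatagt
Mylpf: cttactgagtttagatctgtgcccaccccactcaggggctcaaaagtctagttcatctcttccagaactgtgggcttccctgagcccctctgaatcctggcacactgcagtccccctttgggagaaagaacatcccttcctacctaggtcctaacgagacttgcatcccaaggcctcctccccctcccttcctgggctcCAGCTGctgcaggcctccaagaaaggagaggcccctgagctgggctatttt
Myl4: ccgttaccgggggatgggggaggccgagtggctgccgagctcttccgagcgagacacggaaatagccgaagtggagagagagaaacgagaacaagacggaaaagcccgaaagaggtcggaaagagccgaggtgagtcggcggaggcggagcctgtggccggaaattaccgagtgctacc
Myl6b: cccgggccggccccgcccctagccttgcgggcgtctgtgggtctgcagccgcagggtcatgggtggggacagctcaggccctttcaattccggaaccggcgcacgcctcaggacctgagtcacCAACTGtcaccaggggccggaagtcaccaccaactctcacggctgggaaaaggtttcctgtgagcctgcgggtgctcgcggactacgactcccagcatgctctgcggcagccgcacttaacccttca
Myl6: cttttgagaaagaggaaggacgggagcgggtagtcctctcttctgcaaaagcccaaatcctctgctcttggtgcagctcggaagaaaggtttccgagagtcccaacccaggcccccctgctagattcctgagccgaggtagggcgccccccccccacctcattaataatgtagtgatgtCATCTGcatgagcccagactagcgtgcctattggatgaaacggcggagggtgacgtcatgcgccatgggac

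The Myl1 stretch lies at chr1:66991718-66991864 on the minus strand and the Mylpf stretch at chr7:134354872-134355121 on the plus strand. The Myl1 stretch covers bases 234 to 88 before the RefSeq start, so it ends short of that start. It also lies downstream of another annotated Myl1 start, at 66991958. The Myl4 stretch lies at chr11:104411798-104411976 on the plus strand, and the Myl6b and Myl6 stretches at chr10:127935742-127935991 and chr10:127930943-127931192 on the minus strand (all mm9). Myl1 and Mylpf each had 1 E-box in the 250 bases, in both genes of the form CAGCTG, beginning 224 bases before the RefSeq start in Myl1 and 51 bases in Mylpf. The form CAGCTG was found in 13% of all 32851 promoter windows of the same length, and any E-box in 66.2%, counting both strands. CAGCTG is a subset of CANNTG. Myl4 had no E-box in its window, although its expression ratio was close to that of Mylpf. That window lies at the first of 5 annotated Myl4 starts, which run from 104411977 to 104446278. The neighbouring gene Cdc27 lies 43 bases from this first start. The other starts were not examined, so the Myl4 counts hold for this window alone. Myl6b had 1 E-box (CAACTG) and this Myl6 window 1 (CATCTG). The form CAGCTG was not limited to the lower genes Myl1 and Mylpf. It also lay in a window of Myl2, a gene barely detected here, beginning 130 bases before the start. The other Myl2 window and that of Myl3 held E-boxes of other forms. The windows of Myl9, Mylk and the inner Myl6 start held none. The number of CpG dinucleotides, the sites that Tet enzymes act on, also differed. Within the 250 bases Myl4 had 23, Myl6b 18 and Myl9 16, whereas Myl1 had 6 and Mylpf had 1, against a median of 6 over all windows. The shorter stretches printed above hold 18 of these for Myl4 and 2 for Myl1. Myl6 had 11 in the window shown and 3 in a second window further inside the gene. The motif of MEF2 factors was in 0 of the 11 windows (2.92% of all windows), and the CArG box bound by serum response factor was in those of Myl3, Myl9 and the inner Myl6 start (1.47% of all windows). A match in letters is not a measured binding site, and methylation of these windows was not analysed here.

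**Figure D1:**
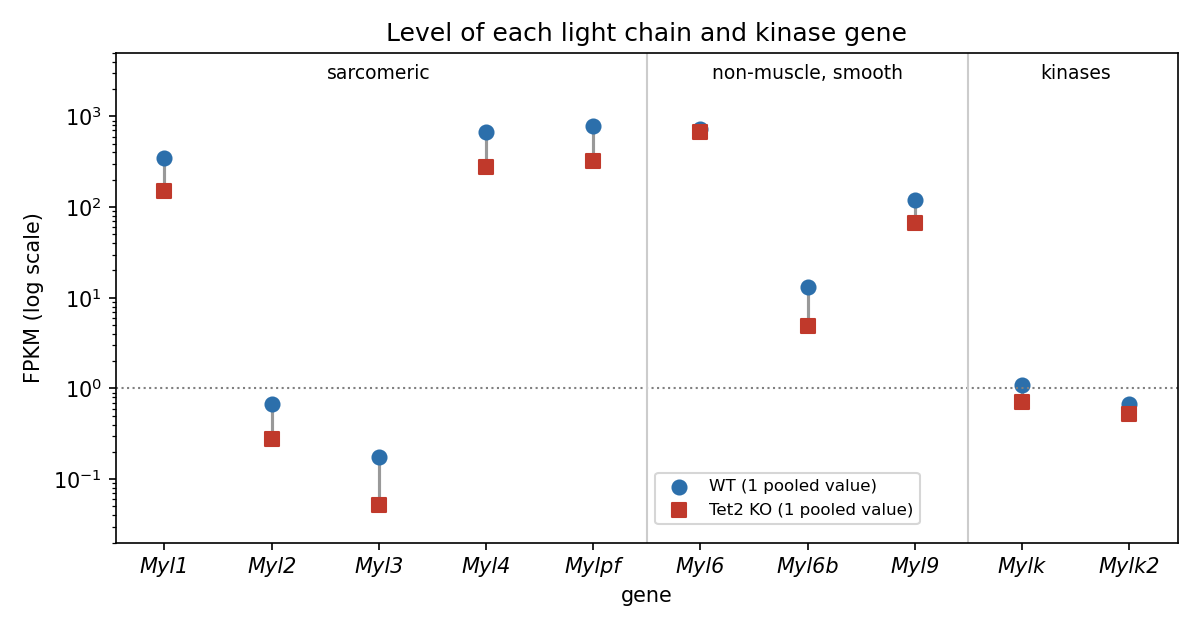
FPKM (log axis) of the 10 genes in WT (blue circles) and Tet2 KO (red squares), 1 pooled value per gene and group with no error available. Each red square lies below its blue circle. The gap is wide for Myl1, Myl4, Mylpf and Myl6b and narrow for Myl6, and Myl2, Myl3 and both kinases lie near or below the dotted line at 1 FPKM.

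The sarcomeric genes were examined first. Mylpf, which encodes the regulatory light chain of fast skeletal muscle, lies at chr7:134352413-134357801 (mm9, as all positions here) on the plus strand and has 7 exons. This span begins before the RefSeq start at 134355122, so the stretch printed above lies inside it. Mylpf had 321 FPKM in Tet2 KO against 790 FPKM in WT, a level 2.46-fold higher in WT. It was the most abundant of the 10 genes in WT, where it ranked 106 by FPKM among all genes of the table, and in Tet2 KO it ranked 272. On the scale used for all comparisons, log2((Tet2 KO FPKM + 1) / (WT FPKM + 1)), its difference was -1.30. The 1 added to each value keeps low levels from giving large ratios, and it understates the difference of low genes. Because bulk RNA was measured, fewer cells that express a gene and less RNA per cell cannot be told apart.

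Myl4, the essential light chain of embryonic skeletal muscle and of the atrium, lies at chr11:104411977-104448533 on the plus strand, with 8 exons. It had 274 FPKM in Tet2 KO against 681 FPKM in WT, which was 2.48-fold higher in WT and gave a log2 difference of -1.31. Myl1 encodes both essential light chains of fast skeletal muscle, a long and a short form made from separate promoters, and lies at chr1:66970870-66991630 on the minus strand. Its 4 coding transcripts start between 66981907 and 66991958, and the gene value adds them up, so the long and the short form were not told apart. Myl1 had 150 FPKM in Tet2 KO against 348 FPKM in WT, a log2 difference of -1.21. A stretch of 703 bases on chromosome 12, from 102459927 to 102460628, was 98.9% identical to 65.0% of the longest Myl1 transcript, so its value is uncertain to the extent that reads were assigned there. The table lists no gene over that stretch.

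The remaining sarcomeric genes were barely detected. Myl2, the regulatory light chain of slow muscle and the ventricle, lies at chr5:122550960-122556863 on the plus strand. It had 0.274 FPKM in Tet2 KO against 0.678 FPKM in WT. Myl3, the essential light chain of the same muscles, lies at chr9:110666185-110672298 on the plus strand and had 0.0515 and 0.177 FPKM. Both were lower in Tet2 KO by value, but at such levels the log2 difference was set by the added 1, with -0.40 for Myl2 and -0.16 for Myl3, against -1.31 and -1.78 without it. They were not counted in the comparison below, which took genes with a mean of the group values of at least 1 FPKM. Nearly all sarcomeric light chain transcripts of these myoblasts thus came from the fast and embryonic genes.

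Among the light chains of non-muscle and smooth muscle myosin the genes differed from each other. Myl6, the common essential light chain of non-muscle and smooth muscle cells, lies at chr10:127927915-127930942 on the minus strand, with 6 exons. It had 674 FPKM in Tet2 KO against 732 FPKM in WT, and its log2 difference of -0.12 left it 1.09-fold higher in WT. Of 6 stretches elsewhere in mm9 with at least 95% identity to its transcript, 5 spanned over 50% of it, so the Myl6 value is uncertain where reads were shared. The stretch on chromosome 8 lies within Ctcf, which had 36.6 FPKM in Tet2 KO against 33.6 FPKM in WT, and the table lists no gene over the other stretches.

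Myl6b lies 271 bases upstream of Myl6 on the same strand, from 127931213 to 127935741, and encodes an essential light chain known from both non-muscle cells and slow muscle. It had 4.87 FPKM in Tet2 KO against 13.2 FPKM in WT, 2.72-fold higher in WT, with a log2 difference of -1.28. Adjacent on the chromosome and alike in protein class, Myl6 and Myl6b thus lay far apart both in level and in difference. The ratio of Myl6 to Myl6b was 138 in Tet2 KO and 55.3 in WT. Myl9, the regulatory light chain of smooth muscle that many other cells also make, lies at chr2:156601200-156607393 on the plus strand, with 4 exons. It had 66.7 FPKM in Tet2 KO against 120 FPKM in WT, a log2 difference of -0.83, between those of Myl6 and Myl6b.

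The kinases were scarce. Mylk, the kinase of smooth muscle and non-muscle cells, lies at chr16:34785036-35002520 on the plus strand and is the longest gene of the set, with 32 exons. It had 0.715 FPKM in Tet2 KO against 1.08 FPKM in WT. Mylk2, the skeletal muscle kinase, lies at chr2:152737088-152748801 on the plus strand, has 12 exons, and had 0.518 FPKM in Tet2 KO against 0.672 FPKM in WT. Their log2 differences were -0.28 and -0.14. The summed level of both kinases was 1.23 FPKM in Tet2 KO against 1.75 FPKM in WT, beside 1490 and 2685 FPKM for the 8 light chains. With the depth unknown, the precision of values this low could not be judged.

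Ordered by level in WT, the genes ran Mylpf, Myl6, Myl4, Myl1, Myl9, Myl6b, Mylk, Myl2, Mylk2 and Myl3. In Tet2 KO the order was Myl6, Mylpf, Myl4, Myl1, Myl9, Myl6b, Mylk, Mylk2, Myl2 and Myl3. Mylpf and Myl6 exchanged the first places, and Myl2 and Mylk2 had almost the same level in WT. Without values per library, it was not known which neighbours in these orders differ beyond their spread.

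A gene was counted as lower or higher when it differed by at least 2-fold on the scale with 1 added. Of the 10 genes, 6 had a mean of at least 1 FPKM, and each of these 6 exceeded 1 FPKM in both groups. Of these, 4 were at least 2-fold lower in Tet2 KO (Myl1, Myl4, Mylpf and Myl6b) and 0 were higher. Of all 11692 genes with a mean of at least 1 FPKM, 1.21% were at least 2-fold lower and 2.08% at least 2-fold higher. At a limit of 1.5-fold Myl9 joined them, giving 5 lower genes, against 2.89% of all genes. No test was made of these counts. The FPKM of each of the 10 genes, including those below 1 FPKM, was lower in Tet2 KO. A lower value alone is common, since the median log2 difference of the 11692 genes was -0.0044. For Myl2, Myl3, Mylk and Mylk2, which had a mean below 1 FPKM, the direction could not be judged. Among the ratios of all 11692 genes, counted from the lowest, Myl4 ranked 67, Mylpf 72, Myl6b 77, Myl1 98, Myl9 201 and Myl6 2654.

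**Figure D2:**
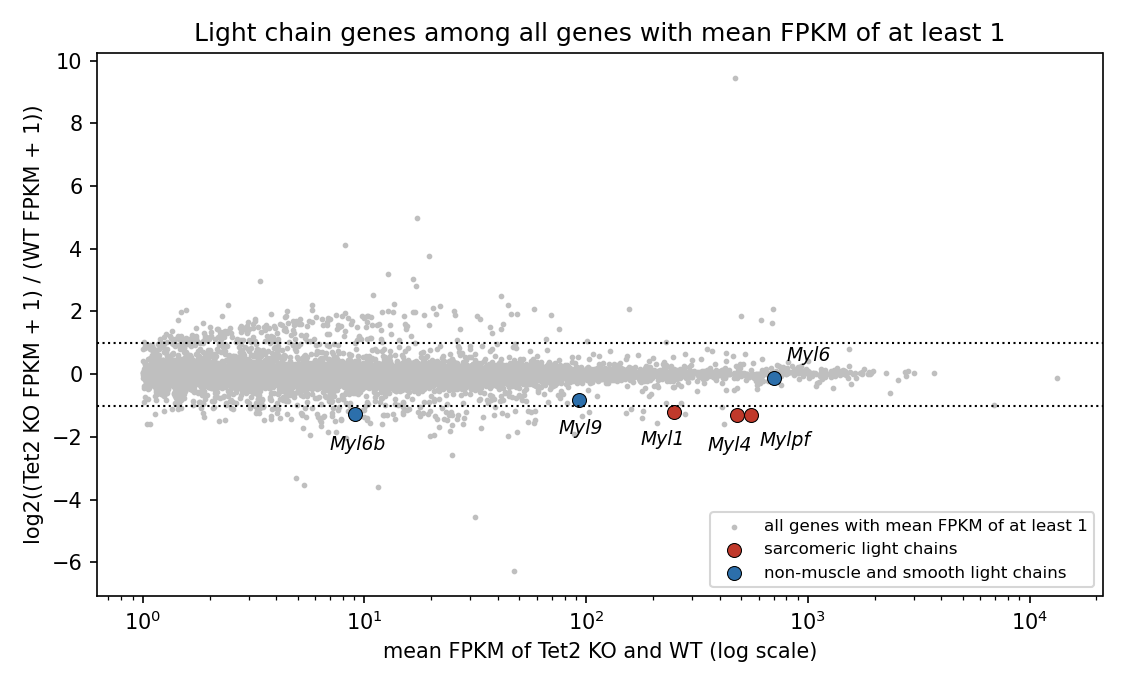
Difference between groups, log2((Tet2 KO FPKM + 1) / (WT FPKM + 1)), against the mean FPKM of both groups (log axis) for the 11692 genes with a mean of at least 1 FPKM (grey), with sarcomeric (red) and non-muscle or smooth (blue) light chain genes marked. Dotted lines mark 2-fold. Myl1, Myl4, Mylpf and Myl6b lie below the lower line, Myl9 just above it, and Myl6 at -0.12.

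The contrast of sarcomeric with non-muscle genes depended on how the second class was drawn. The median log2 difference was -1.30 over the 3 sarcomeric genes with a mean of at least 1 FPKM, which ran from -1.31 to -1.21. It was -0.83 over Myl6, Myl6b and Myl9, which ran from -1.28 to -0.12, so the classes overlapped at Myl6b. The difference of the medians was -0.46. Over all 11692 genes the median was -0.0044, with the central 95% from -0.65 to 0.88. Myl12a and Myl12b, the regulatory light chains that most non-muscle cells use, were not in the set and had log2 differences of -0.09 and -0.03. With both added, the median of the non-muscle class was -0.12 and the difference -1.18, a choice made after their values were seen. Myl12a had 236 and 252 FPKM in Tet2 KO and WT, and Myl12b had 44.1 and 44.9 FPKM. Of the summed level of the 3 regulatory genes Myl9, Myl12a and Myl12b, Myl9 made up 19.2% in Tet2 KO and 28.8% in WT.

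Because FPKM is per length, the make-up of the light chain transcripts could be compared. The 8 light chain genes summed to 1490 FPKM in Tet2 KO against 2685 FPKM in WT. The sarcomeric genes accounted for 745 and 1820 FPKM of this, and the non-muscle genes for 745 and 865 FPKM. The sarcomeric share was thus 50.0% in Tet2 KO and 67.8% in WT. Myl6 held 45.2% in Tet2 KO and 27.3% in WT, while the share of Myl9 was 4.48% and 4.46%. These are shares of a total that was lower in Tet2 KO. By level, Myl6 had 674 FPKM in Tet2 KO against 732 FPKM in WT, and Myl9 66.7 against 120 FPKM. With Myl12a and Myl12b in the total, the sarcomeric share was 42.1% and 61.0%.

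Within the sarcomeric genes the proportions were close. Mylpf held 43.0% of their sum in Tet2 KO and 43.4% in WT, Myl4 36.8% and 37.4%, and Myl1 20.1% and 19.1%. The ratio of sarcomeric essential to regulatory light chain transcripts was 1.32 in Tet2 KO and 1.30 in WT. The ratio of Myl1, a gene of fast skeletal muscle, to Myl4, which is embryonic in skeletal muscle, was 0.548 in Tet2 KO and 0.512 in WT. No spread was at hand for these ratios, so it was not known whether they differ between groups.

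**Figure D3:**
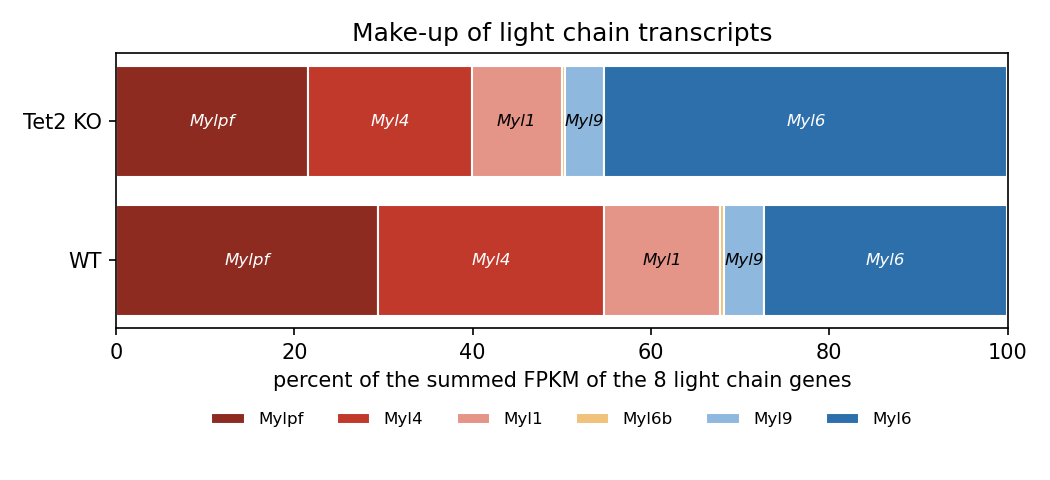
Share of each gene in the summed FPKM of the 8 light chain genes, in percent, for Tet2 KO (top) and WT (bottom), 1 pooled value per group. Red segments are sarcomeric and blue segments non-muscle genes; Myl6b is the thin orange segment, and Myl2 and Myl3 are too small to see. The red share is 50.0% in Tet2 KO and 67.8% in WT.

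At high levels, lower genes were about as rare as among all genes with a mean of at least 1 FPKM (1.21%). Of 935 genes with a mean of at least 100 FPKM, 12 (1.28%) were at least 2-fold lower in Tet2 KO and 8 were at least 2-fold higher. Myl1, Myl4 and Mylpf were 3 of these 12, and Myl6, the remaining light chain of the set at this level, was not among them. The other 9 were the actin gene Acta1 (-1.60), the embryonic heavy chain Myh3 (-1.56), the troponin genes Tnnt3 (-1.38), Tnnc1 (-1.28), Tnni1 (-1.19) and Tnnt2 (-1.13), the small heat shock protein gene Hspb8 (-1.25), the small nucleolar RNA gene Snord15b (-1.20), and Myog (-1.04), which encodes myogenin. Tnnt3, Hspb8, Snord15b and Tnnt2 reached the mean of 100 FPKM through WT, with 98.8, 89.3, 61.9 and 99.6 FPKM in Tet2 KO. Troponins and actin form the thin filament that sarcomeric myosin pulls on, and myogenin is the transcription factor of terminal differentiation.

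The partners of the light chains were described next. Of the 8 sarcomeric heavy chain genes, 5 had a mean of at least 1 FPKM, and all 5 were at least 2-fold lower in Tet2 KO: Myh1 (-1.86), Myh8 (-1.73), Myh3 (-1.56), Myh7 (-1.35) and Myh2 (-1.26). Myh2 reached the limit on low values through WT alone, with 0.258 FPKM in Tet2 KO against 2.02 FPKM in WT. Their summed level was 153 FPKM in Tet2 KO against 476 FPKM in WT. Myh9 and Myh10, the non-muscle heavy chains, had log2 differences of 0.04 and -0.01. The sarcomeric share of heavy chain transcripts was 46.1% in Tet2 KO and 73.1% in WT, beside 50.0% and 67.8% for the light chains. Summed sarcomeric light chain transcripts exceeded heavy chain transcripts by a ratio of 4.86 in Tet2 KO and 3.82 in WT. The heavy chain sum thus differed more (log2 ratio of the sums -1.63) than the light chain sum (-1.29), a difference that was not tested.

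Of the enzymes that set light chain phosphorylation, no gene with a mean of at least 1 FPKM was past 2-fold in either direction. Of all genes at that mean, 1.21% were at least 2-fold lower and 2.08% higher, so few would be met in lists this short. The kinases Mylk, Mylk2 and Mylk3 were below that mean and could not be counted. Myosin phosphatase removes the phosphate, and all 7 of its genes and inhibitors were expressed, from -0.21 for Ppp1r12a, the targeting subunit, to 0.13 for Ppp1r12c, with a median of -0.01. Of 12 other genes that act on regulatory light chains (among them Rock1, Rock2 and kinases of the Dapk and Pak families), 0 were past 2-fold, with a median of -0.02. They ran from -0.44 for Dapk2 (28.4 FPKM in Tet2 KO against 39.0 FPKM in WT) to 0.34 for Dapk1, which had 1.47 and 0.942 FPKM. Mylk4, another kinase gene of striated muscle, had 2.05 FPKM in Tet2 KO against 4.08 FPKM in WT. Its log2 difference was -0.74, and -0.99 without the added 1. It was the most abundant kinase gene of the Mylk family in both groups, above Mylk and Mylk2. Mylk3, the cardiac kinase, had 0.0532 and 0.107 FPKM.

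Of 4 factors that fold myosin, Unc45b, the muscle form of the myosin chaperone, had 6.33 FPKM in Tet2 KO against 13.8 FPKM in WT (-1.02) and was the 1 past 2-fold. Smyd1, a methyltransferase of striated muscle that binds myosin, had a log2 difference of -0.82, and Hsp90aa1 of -0.06. Over these 41 related genes, 33 had a mean of at least 1 FPKM. Of them 6 were at least 2-fold lower and 0 higher, with a median of -0.06, beside the 1.21% and 2.08% of all genes given above. The 6 were the 5 heavy chains and Unc45b.

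**Figure D4:**
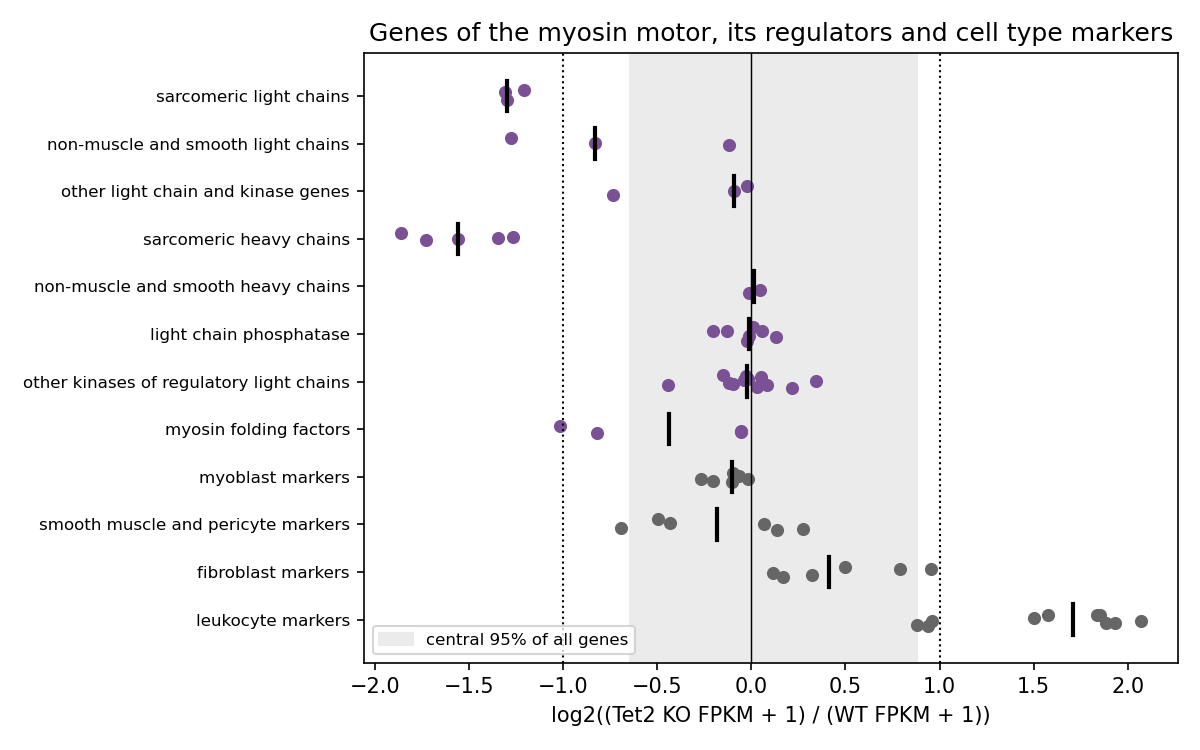
Difference between groups, log2((Tet2 KO FPKM + 1) / (WT FPKM + 1)), for each gene with a mean of at least 1 FPKM (points) and the median (black bar) of each list; purple marks myosin and its regulators, grey marks cell type markers. The shaded band holds the central 95% of all genes, from -0.65 to 0.88, and dotted lines mark 2-fold. Sarcomeric light and heavy chains lie left of the lower line, leukocyte markers lie to the right.

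The labelled cell type was checked against its markers. The myoblast markers Myod1, Myf5, Pax7, Des, Cdh15 and Itga7 were all expressed, with Myod1 at 313 FPKM in Tet2 KO against 336 FPKM in WT, and their log2 differences ran from -0.27 for Des to -0.02 for Pax7. Tet2 itself had 5.79 FPKM in Tet2 KO against 6.64 FPKM in WT (-0.17). This is a value for all exons together, and exon 3 cannot be read from it alone, so the labels were not checked by it.

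Markers of other cells that make these light chains were set beside the results. Cardiomyocyte markers, which would accompany Myl2, Myl3 and Myl4 in heart muscle, summed to 1.01 FPKM in Tet2 KO against 1.04 FPKM in WT over 7 genes, with 0 of them at 1 FPKM and the atrial light chain Myl7 listed at 0 in both groups. Of 10 smooth muscle and pericyte markers, which would accompany Myl9 and Mylk, 6 had a mean of at least 1 FPKM and 0 were past 2-fold. Their sum was 185 FPKM in Tet2 KO against 278 FPKM in WT, most of it Acta2 (146 and 236 FPKM, log2 difference -0.69), while Myh11, Cnn1, Lmod1 and Rgs5 stayed below 1 FPKM in both groups. Of 10 leukocyte markers 7 were at least 2-fold higher in Tet2 KO. The 10 ran from 0.88 for Cd14 to 2.07 for Lyz2, and their sum was 463 FPKM in Tet2 KO against 118 FPKM in WT. The 6 fibroblast markers with a mean of at least 1 FPKM ran from 0.11 for Thy1 to 0.95 for Dcn, and all 8 on the list summed to 201 and 169 FPKM. Of 6 endothelial markers, Pecam1 was the 1 with a mean of at least 1 FPKM, at -0.08. The part of leukocyte, fibroblast and smooth muscle transcripts in the light chain differences was not tested.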

How the data were processed

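Bulk RNA sequencing of 2 WT and 2 Tet2 KO myoblast libraries was used. Per the submitters' processing notes and the study's methods, CASAVA, FastQC, TopHat2 2.0.13 and Cuffdiff 2.2.1 were used with the mouse build mm9, and the gene annotation was not stated. The authors deposited 1 FPKM value per gene and group. How the libraries were combined was not stated, so each value was taken as the authors' pooled value. The table also held the authors' own comparison (a log2 fold change, a test statistic, p-values and q-values), none of which was used. Without values per library, neither a test nor an interval was computed from the FPKM values. The depth of each library is unknown, which limits low values most.

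Genes were selected by symbol. Differences were computed as log2((Tet2 KO FPKM + 1) / (WT FPKM + 1)), and a gene was counted when its mean FPKM was at least 1 and it differed by at least 2-fold. The 10 genes, the related lists and the marker lists were chosen with earlier results of these data known. A related list is not reported here. Named genes were the 10 genes, those of each other list past 2-fold or at its extremes, the genes nearest to the 10 on each side with a mean of at least 1 FPKM, genes with a mean of at least 100 FPKM past 2-fold lower, and Tet2; others (Myl12a, Myl12b, Myl10, Mylk3, Mylk4, single markers, Ctcf) were named after their values were seen. Positions are in mm9, and table starts, which count from 0, were raised by 1. Exons came from GENCODE vM1, which is of the same build. Promoters came from RefSeq (GRCm38.p6). Copies with at least 95% identity were searched with BLAST+ 2.17.0. Alternatives changed the pseudocount (0.1 or none), the minimum (none or 5), the fold (1.5), the scaling (TPM, median centring) and the lists. The scripts were tested on simulated data. The scripts ran under Python 3.11.15 with matplotlib 3.10.9, numpy 2.4.6 and pandas 2.3.3.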

Additional observations from a re-analysis of the deposited data

How the results depend on the processing

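No paired analysis was possible because each group has a single pooled value; single libraries could not be left out for that reason either. Since no spread between libraries was at hand, an alternative was taken as close when it lay within 1.5 times of the reported value, for log2 differences and medians on the unlogged fold. Of 91 alternative values 85 did, 6 moved further and 0 changed direction. The count of 4 genes at least 2-fold lower was the same under a pseudocount of 0.1 or none, the minimum removed or raised to 5 FPKM, TPM and median centring. It was 5 at 1.5-fold. Raising the minimum to 5 FPKM could not change the count, since Myl6b, the lowest gene counted, had a mean of 9.05 FPKM. The minimum was removed only with 1 added to each value, and removing both was not tried. Adding Myl12a and Myl12b to the non-muscle genes, chosen after seeing the data, moved their median from -0.83 to -0.12 and the difference of the medians from -0.46 to -1.18, by its construction. Placing Myl6b with the sarcomeric genes instead gave -0.48 and -0.81. Leaving out 1 gene at a time, the sarcomeric median ran from -1.30 to -1.25 and the non-muscle median from -1.06 to -0.48. The differences of Myl2 and Myl3 depend on the pseudocount, with -1.06 and -0.87 at 0.1 and -1.31 and -1.78 with none. Median centring shifted every log2 difference by 0.0044. Under TPM the median over all genes shifted by 0.0031 and low genes moved further, with Myl2 at -0.56 and Myl3 at -0.27.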

Other observations

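Genes next to the 10 were compared with them by value. The 18 nearest genes that are no light chain or kinase and have a mean of at least 1 FPKM included 0 that were at least 2-fold lower and 1 that was higher, with a median of 0.02. The higher one was Ltf, which encodes lactoferrin and lies 249498 bases from Myl3, with 71.0 FPKM in Tet2 KO against 11.7 FPKM in WT. For Myl1, Myl4, Mylpf and Myl6b, which were at least 2-fold lower, the 7 such neighbours ran from -0.21 for Tbc1d10b to 0.75 for Itgb3 and none reached 2-fold. Of all 11692 genes with a mean of at least 1 FPKM, 1.21% were at least 2-fold lower and 2.08% higher. At such shares, sets of 18 and 7 genes would hold few or none, so these counts say little about the neighbours. Cdc27 begins 43 bases from Myl4 and had a log2 difference of 0.03. Tbc1d10b lies 431 bases from the edge of the Mylpf span, and further from the RefSeq start of Mylpf, which is inside that span. Smarcc2, 685 bases beyond Myl6, had -0.09, and Esyt1, next to Myl6b, had -0.11.

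Myl10, a regulatory light chain gene outside the set, had 0.686 FPKM in Tet2 KO against 0.0844 FPKM in WT. It was higher in Tet2 KO by value, in contrast to the 10 genes, but stayed below 1 FPKM in both groups.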
